A study of Mus musculus with 6 samples.

Results

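The genes described here were those that encode collagen chains, taken as every gene of the table whose symbol read Col, a number, the letter a and a number. There were 44 of them among 23718 listed genes. By the structure of the collagen they form, 11 encoded fibrillar chains, 9 network-forming chains, 9 fibril-associated chains with interrupted helices (FACIT), 6 microfibrillar chains of type VI and 4 transmembrane chains. The other 5, Col7a1, Col15a1, Col18a1, Col26a1 and Col28a1, belonged to none of these 5 classes. A gene was tested when its mean over the 6 samples was at least 1, which left 40 of the 44. Col4a3, Col4a4, Col6a4 and Col6a6 fell below that level.

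The samples came from 2 regions of the incisor, a tooth that keeps growing throughout life, in mice aged 1 month, and their RNA was sequenced. The labels give the strain as C57BL/6, whereas the study's methods speak of a mixed background. The mesenchymal stem cell (MSC) region was taken from Gli1-CreER;tdT mice and the transit amplifying cell (TAC) region, which holds the dividing offspring of the stem cells, from Axin2-CreER;tdT mice, with 3 samples in each group. Both genotypes carry a Cre recombinase that tamoxifen switches on in cells with an active Gli1 or Axin2 gene and a red reporter that Cre turns on, and all mice received tamoxifen 1 day before collection. Marked regions were cut from tissue sections by laser capture microdissection, so a sample could hold any cell type within the cut, and the genotype of the mice differed between the groups together with the region. The comparison asks which genes distinguish stem cells from transit amplifying cells.

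Collagens are the main structural proteins of connective tissue. Each is built from chains that wind around one another into a helix, either copies of a single chain or a fixed mix of different chains. Fibrillar collagens form the ropes of dentin, bone and pulp, network collagens form sheets such as basement membranes, FACIT collagens decorate fibrils, type VI forms beaded filaments around cells, and transmembrane collagens stay anchored in the cell membrane.

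Values are normalized read numbers: the reads assigned to a gene plus 1, scaled per library. Gene length was not divided out, so values of different genes are not on a shared scale. The 6 libraries held 20203159 to 108156380 estimated reads. By its reads, replicate 3 of each group looked like a different kind of library from replicates 1 and 2. The sample titles and the study's methods name no such difference, so the kinds of library used below were drawn from the values. Mitochondrial ribosomal RNA took 8.28% to 9.07% of reads in replicates 1 and 2 of both groups, 0.236% in MSC replicate 3 and 0.112% in TAC replicate 3. Of the 40 tested collagen genes, 35 (87.5%) were lower in MSC replicate 3 than in both other MSC libraries, where 59.2% of all genes tested were. In TAC the same held for 33 (82.5%), against 53.9% of all genes. Of the 44 genes, 13 had no read in at least 1 library. Dental mesenchyme markers had reads in every library except Pitx1, which had none in at least 1. The summed value of the 8 markers Msx1, Msx2, Pax9, Lhx6, Lhx8, Dlx1, Dlx2 and Pitx1 was 663, 651 and 795 in the MSC libraries and 511, 527 and 574 in the TAC libraries. These markers did not move together. Of the 7 tested, 5 were lower in TAC and 2, Msx1 and Msx2, were higher. Dlx1 alone was 461 in MSC replicate 3. Throughout, the values of a group are given in the order of replicates 1, 2 and 3.

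The main fit was limma on the deposited values of all 6 samples, with a pseudocount of 1, a variance trend and no block or batch term. In that fit the collagen genes that passed a threshold of the test between MSC and TAC were all lower in TAC. Some other fits, given below, also placed genes higher in TAC. By limma with Benjamini-Hochberg adjustment over the 15391 genes tested, 2 of the 40 collagen genes had an adjusted p under 0.05, the network chain Col8a1 and the basement membrane chain Col18a1, and both were lower in TAC. Of all genes tested, 0.422% were called. At an unadjusted p under 0.05 there were 10 collagen genes, or 25.0%, against 11.9% of all genes. All 10 were lower in TAC, where 6.43% of all genes lay, and 0 were higher, where 5.42% lay. Across the 40 genes, 24 had a negative log2 fold change, a lower value in TAC, where 48.5% of all genes did, and 16 a positive one. Their median was -0.46, against 0.03 over all genes tested. It became -0.90 without MSC replicate 3 and -0.12 without TAC replicate 3. In replicates 1 and 2 the median was -0.65, and in replicate 3 it was -0.0014. The MSC and TAC libraries did not overlap for 11 genes that were lower in TAC (27.5%) and for Col27a1, which was higher in TAC. Among all genes these shares were 12.2% and 12.3%.

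The numbers of calls depended on how replicate 3 was handled and on individual libraries. With the replicate number as a block, which takes up the split between kinds of library, 5 collagen genes passed the adjusted threshold, where 1.49% of all genes did, with Col9a1, Col6a1 and Col16a1 added. At an unadjusted p under 0.05 the blocked fit gave 16 lower and 5 higher in TAC, where 20.4% of all genes passed. With the kind of library as a batch term, 16 collagen genes passed the adjusted threshold in limma, where 11.8% of all genes did. Of these, 14 were lower in TAC, namely Col8a1, Col18a1, Col9a1, Col6a1, Col16a1, Col3a1, Col4a1, Col4a2, Col4a5, Col4a6, Col5a1, Col6a2, Col6a3 and Col8a2, and 2 were higher, Col11a1 and Col26a1. When any library of replicates 1 and 2 was left out, the count at the adjusted threshold was 0, with 7 genes at an unadjusted p under 0.05 in limma (8 where TAC replicate 2 was missing). Leaving out MSC replicate 3 gave 4, and leaving out TAC replicate 3 gave 2. For the fits with 1 library left out, the share of all genes that passed is not given here, so these counts cannot be set against the whole table. In bulk samples such as these, fewer cells of a type and less RNA per cell cannot be told apart.

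**Figure D1:**
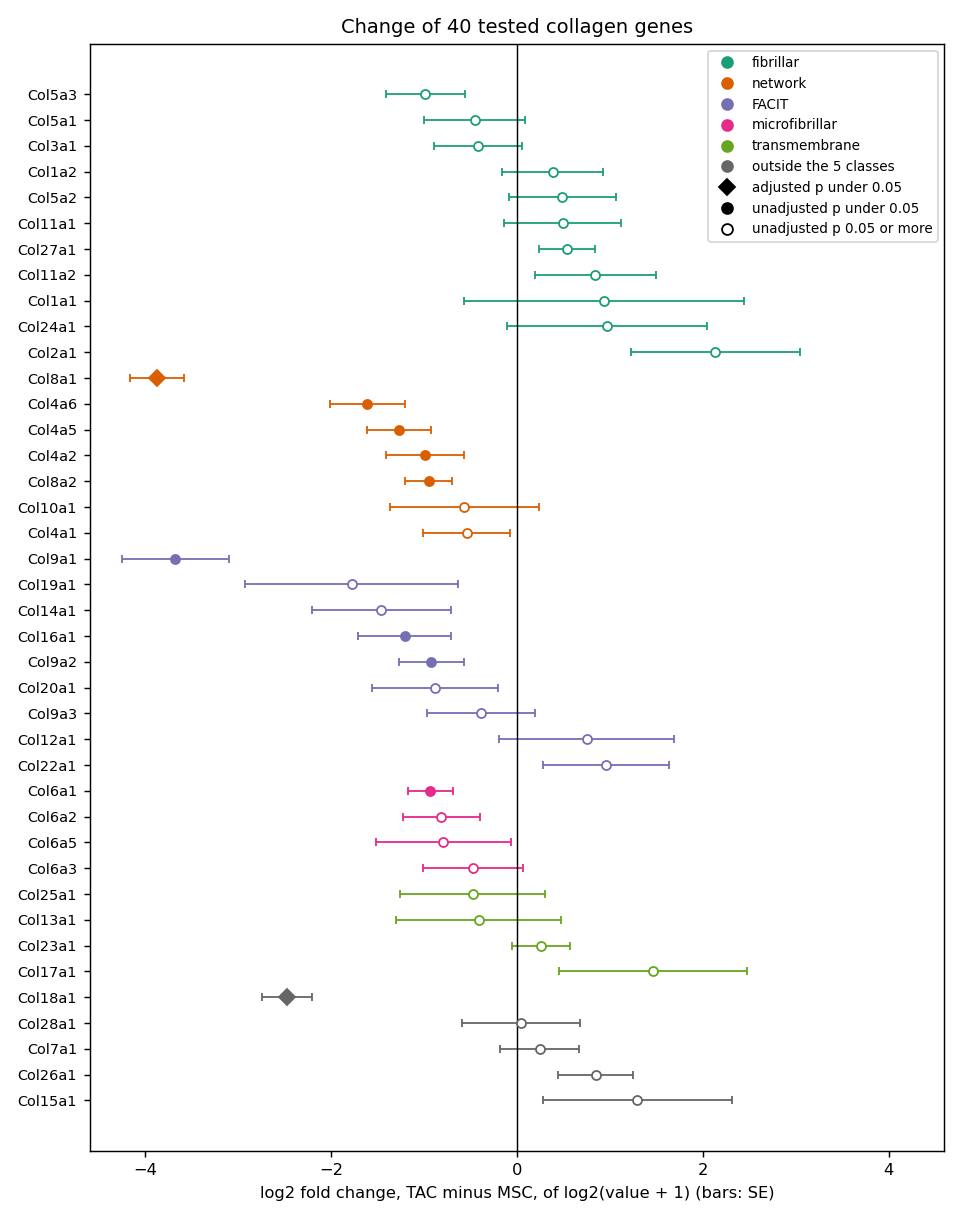
Log2 fold change, TAC minus MSC, of log2(value + 1) for the 40 tested collagen genes, sorted within each class (colors), with bars for the SE. The 7 network chains and 4 microfibrillar chains all lie left of 0, 8 of 11 fibrillar chains lie right of 0, and the diamonds mark Col8a1 (-3.87) and Col18a1 (-2.48), the only genes with an adjusted p under 0.05.

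The plot of fold changes gives the direction by class. The network class had a median log2 fold change of -0.99 and 7 of 7 tested genes lower in TAC. FACIT had -0.92 and 7 of 9 lower, and the microfibrillar class -0.81 and 4 of 4 lower. The fibrillar class had 0.49 and 3 of 11 lower. Transmembrane chains lay at -0.08 with 2 of 4 lower, and the 5 unclassed genes at 0.25 with 1 lower. In FACIT, transmembrane and unclassed genes the median had opposite signs in the kinds of library, at -1.30, -0.24 and -0.13 in replicates 1 and 2 and at 0.0013, 0.49 and 1.00 in replicate 3. The FACIT value of 0.0013 is that of Col19a1, which had at most 1 read there. The log2 fold changes of a class were not tested as a set. With the replicate block, where 20.4% of all genes were at an unadjusted p under 0.05, those genes numbered 6 lower and 0 higher in the network class, 3 lower and 1 higher in FACIT, 3 lower and 0 higher in the microfibrillar class and 3 lower and 3 higher in the fibrillar class.

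The network class held Col8a1 and 4 more of the 10 genes at an unadjusted p under 0.05. Col8a1 (chromosome 16, 57624258 to 57754737, minus strand) encodes a chain of type VIII collagen, a short-chain collagen of vessel walls and of the membrane beneath the corneal endothelium. Its value was 115, 117 and 90.0 in the MSC libraries and 8.08, 5.85 and 5.38 in the TAC libraries. Every MSC library stood above every TAC library, and the lowest MSC library was replicate 3. The mean was 108 ± 15.3 (SD, n = 3) in MSC and 6.44 ± 1.44 in TAC, a ratio of 16.7 between MSC and TAC, and the log2 fold change came to -3.87 (SE 0.29, limma adjusted p 0.00876). Replicates 1 and 2 gave -3.90 and replicate 3 gave -3.83, so the difference was nearly equal in both kinds of library. Leaving out replicate 1 or 2 of MSC, or replicate 1 or 2 of TAC, moved its limma adjusted p to 0.0775, 0.0770, 0.0613 and 0.0630, past the threshold.

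Col8a2 (chromosome 4, 126286793 to 126314330, plus strand), the other type VIII chain, was 174, 178 and 188 in the MSC libraries and 98.1, 102 and 79.0 in the TAC libraries. The groups did not overlap here either, but the ratio of the means was 1.93, and the log2 fold change of -0.95 (SE 0.26, limma unadjusted p 0.00688, adjusted p 0.193) did not reach the adjusted threshold. Col10a1, the short chain of hypertrophic cartilage, was low. It had at most 5.17 in any library and no read in either replicate 3. The promoters of Col8a1 and Col8a2 are shown because these chains build the same collagen and their fold changes had different sizes. Each line gives 250 bases before and 50 bases after the transcription start, from RefSeq on build GRCm38.p6, 5′ to 3′ on the strand of the gene, with matches to GGGCGG (the core of a GC box), CCAAT and TATAAA on either strand in capitals.
Col8a1, chr16:57754688-57754987, minus strand: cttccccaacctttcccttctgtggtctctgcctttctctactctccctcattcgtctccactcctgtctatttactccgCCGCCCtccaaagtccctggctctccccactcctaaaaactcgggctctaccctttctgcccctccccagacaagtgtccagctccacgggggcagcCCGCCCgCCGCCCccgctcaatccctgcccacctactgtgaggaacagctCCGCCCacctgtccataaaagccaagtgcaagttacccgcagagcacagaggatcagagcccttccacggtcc
Col8a2, chr4:126286544-126286843, plus strand: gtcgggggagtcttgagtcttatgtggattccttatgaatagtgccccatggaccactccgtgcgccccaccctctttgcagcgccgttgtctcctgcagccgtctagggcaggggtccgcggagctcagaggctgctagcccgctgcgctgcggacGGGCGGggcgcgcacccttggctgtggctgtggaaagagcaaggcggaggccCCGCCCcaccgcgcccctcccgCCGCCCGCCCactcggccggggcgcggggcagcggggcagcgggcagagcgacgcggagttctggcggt

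Both windows held 4 matches to GGGCGG and none to CCAAT or TATAAA. They differed in base composition, with GC at 60.3% in Col8a1 and 71.7% in Col8a2, and in CpG pairs, with 12 and 32. Windows were found for 35 of the 44 collagen genes, 38 in all, and none for Col1a1, Col2a1, Col4a3, Col5a2, Col9a3, Col12a1, Col14a1, Col22a1 and Col26a1. Among the 38, GGGCGG occurred in 60.5%, against 35.7% of 32851 windows of all genes. CCAAT occurred in 34.2% against 37.4%, and TATAAA in 13.2% against 13.6%. Median GC was 59.8% against 52.7%. Such matches describe the letters of the window and are not binding sites.

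Type IV collagen, the sheet of basement membranes, was lower in TAC in all 4 of its tested chains. Col4a1 (chromosome 8, 11198423 to 11312826, minus strand) and Col4a2 (chromosome 8, 11312805 to 11449287, plus strand) form its most widespread trimer. Col4a1 was 297, 295 and 137 in the MSC libraries and 194, 213 and 93.2 in the TAC libraries, and Col4a2 was 233, 239 and 136 in the MSC libraries and 126, 130.2 and 57.9 in the TAC libraries. MSC replicate 3 lay among the TAC values for Col4a1, while for Col4a2 it stayed just above the highest TAC library. The log2 fold changes were -0.54 (SE 0.47, limma unadjusted p 0.282, adjusted p 0.708) for Col4a1 and -0.99 (SE 0.42, limma unadjusted p 0.0491, adjusted p 0.418) for Col4a2. Col4a5 and Col4a6, chains of basement membranes with a more restricted distribution, lie next to each other on chromosome X. Col4a5 was 32.7, 36.8 and 23.2 in the MSC libraries and 13.2, 14.1 and 9.18 in the TAC libraries, and Col4a6 was 17.9, 17.8 and 16.7 in the MSC libraries and 6.35, 5.97 and 3.31 in the TAC libraries. In both genes every MSC library exceeded every TAC library, with log2 fold changes of -1.27 (SE 0.34, limma unadjusted p 0.00679, adjusted p 0.192) and -1.61 (SE 0.40, limma unadjusted p 0.00478, adjusted p 0.179). Col4a3 and Col4a4, the partners of Col4a5 in the kidney and lung, were close to 0, at no more than 0.506 and 0.791 in any library.

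These type IV genes sit in head-to-head pairs, with neighbouring starts and transcription in opposite directions. Col4a1 and Col4a2 overlap by 22 bases, Col4a3 and Col4a4 are 71 bases apart, and Col4a5 and Col4a6 are 1308 bases apart. The promoters of Col4a1 and Col4a2 are shown because they lie side by side on opposite strands, and their windows share 78 bases. Capitals mark the same motifs as above.
Col4a1, chr8:11312777-11313076, minus strand: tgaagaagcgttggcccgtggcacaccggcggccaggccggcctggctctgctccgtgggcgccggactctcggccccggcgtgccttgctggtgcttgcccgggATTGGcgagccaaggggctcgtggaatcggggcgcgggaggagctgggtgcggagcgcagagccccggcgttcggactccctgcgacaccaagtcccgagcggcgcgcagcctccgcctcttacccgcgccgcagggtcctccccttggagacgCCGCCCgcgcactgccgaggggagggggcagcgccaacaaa
Col4a2, chr8:11312555-11312854, plus strand: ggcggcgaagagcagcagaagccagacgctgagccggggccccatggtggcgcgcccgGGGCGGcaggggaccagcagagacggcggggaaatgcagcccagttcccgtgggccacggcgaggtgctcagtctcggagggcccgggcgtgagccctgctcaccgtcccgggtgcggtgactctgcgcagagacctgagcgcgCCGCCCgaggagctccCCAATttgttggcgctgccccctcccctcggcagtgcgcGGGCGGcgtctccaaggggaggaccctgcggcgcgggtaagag

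GC was 74.0% in the Col4a1 window and 73.7% in the Col4a2 window. GGGCGG matched 1 time in the former and 3 times in the latter, and CCAAT 1 time in each. How the counting treated strand is not given in the sources used here, so reads in the 22 shared bases cannot be told apart between the genes.

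Markers of vessel cells were, like the network class, mostly lower in TAC, as were most macrophage and dental follicle genes tested. Within MSC they did not follow the network class. Of its 7 tested genes, 6 were lower in MSC replicate 3 than in both other MSC libraries, while the sums of both vessel lists were highest there. The summed value of 7 smooth muscle and pericyte genes (Acta2, Myh11, Tagln, Cnn1, Rgs5, Notch3 and Cspg4) was 831, 839 and 1489 in the MSC libraries and 126, 124 and 88.6 in the TAC libraries. All 7 were lower in TAC at an unadjusted p under 0.05, where 6.43% of all genes tested lay. Of them, 5 (Acta2, Myh11, Tagln, Rgs5 and Notch3) had a limma adjusted p under 0.05, where 0.422% of all genes were called. As with the collagen calls, all 5 were lost when any library of replicates 1 and 2 was left out, with limma adjusted p from 0.107 to 0.241. Leaving out TAC replicate 3 kept the call of Myh11 and lost those of Acta2, Notch3, Rgs5 and Tagln (limma adjusted p 0.0958, 0.0659, 0.141 and 0.0659), and each of the 5 lost its call under at least 1 other pseudocount, scaling or variance model. With the replicate block, Acta2 was at a limma adjusted p of 0.0701 and Cspg4 at 0.0442. The sum of 6 endothelial genes (Pecam1, Cdh5, Kdr, Tek, Emcn and Cldn5) was 151, 147 and 230.2 in the MSC libraries and 87.5, 86.2 and 69.7 in the TAC libraries. Of the 6, 5 were lower in TAC, where 48.5% of all genes were. At an unadjusted p under 0.05, 3 were lower, where 6.43% of all genes lay. With the block, Cldn5 was at a limma adjusted p of 0.0491, and 1.49% of all genes passed. None of the 6 endothelial genes was at 0, while Cnn1 had no read in TAC replicate 3. Each MSC sum exceeded each TAC sum in both lists. Among markers of glia, Sox10 was 5.62, 3.80 and 3.49 in the MSC libraries and 0.109, 0.504 and 0.00379 in the TAC libraries, with all TAC libraries below all MSC libraries, no read in TAC replicate 3 and a log2 fold change of -2.14 (SE 0.50, limma unadjusted p 0.00333, adjusted p 0.156). Their part in the collagen result was not tested.

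Col18a1 (chromosome 10, 77052178 to 77166548, minus strand) showed the other difference past the adjusted threshold. It encodes a collagen of basement membranes, a member with Col15a1 of the multiplexins, and its end fragment is endostatin, an inhibitor of vessel growth. Its value was 74.3, 69.7 and 71.4 in the MSC libraries and 12.9, 13.5 and 10.1 in the TAC libraries. The 3 MSC libraries lay within 69.7 to 74.3, all far above the highest TAC library. This narrow spread within MSC belonged to the scaling. Per megaread and kilobase of exon the MSC libraries were at 18.1, 17.0 and 25.6 and the TAC libraries at 3.27, 3.38 and 3.51. Group means were 71.8 ± 2.33 (SD, n = 3) in MSC and 12.2 ± 1.81 in TAC, a ratio of 5.91, and the log2 fold change came to -2.48 (SE 0.27, limma adjusted p 0.0271). Replicates 1 and 2 gave -2.36, and replicate 3 gave -2.71. The limma adjusted p was 0.222, 0.219, 0.152 and 0.160 when replicate 1 or 2 of MSC, or replicate 1 or 2 of TAC, was left out, and 0.0689 without the variance trend. With replicates 1 and 2 of each group averaged it was 0.453 in limma. Col18a1 overlaps Slc19a1 in the annotation, and reads in the overlap cannot be assigned between them here.

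The table gave 1 value for Col18a1, whereas RefSeq gives it 2 start sites. Both promoters are shown because Col18a1 was one of the called genes and its value does not separate the transcripts.
Col18a1, chr10:77166481-77166780, minus strand: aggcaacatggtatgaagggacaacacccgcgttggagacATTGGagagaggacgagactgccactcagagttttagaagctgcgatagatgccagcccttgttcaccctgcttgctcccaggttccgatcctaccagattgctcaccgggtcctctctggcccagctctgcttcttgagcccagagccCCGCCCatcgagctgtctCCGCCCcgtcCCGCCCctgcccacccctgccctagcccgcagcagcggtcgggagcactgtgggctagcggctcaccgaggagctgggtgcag
Col18a1, chr10:77113656-77113955, minus strand: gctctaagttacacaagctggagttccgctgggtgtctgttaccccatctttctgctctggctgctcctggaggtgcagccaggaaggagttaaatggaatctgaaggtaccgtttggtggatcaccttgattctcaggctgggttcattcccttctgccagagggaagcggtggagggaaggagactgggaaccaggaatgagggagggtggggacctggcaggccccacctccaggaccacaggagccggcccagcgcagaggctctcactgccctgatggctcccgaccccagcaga

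The upstream window had 3 matches to GGGCGG and 1 to CCAAT, and the downstream window had none of the motifs. Their GC was 63.3% and 59.7%, with 16 and 6 CpG pairs.

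The relative of Col18a1, Col15a1, did not share its direction, with a log2 fold change of 1.29 (SE 1.02, limma adjusted p 0.687) and no read in MSC replicate 3. Col7a1, the chain of the anchoring fibrils under epithelia, was 79.8, 87.5 and 30.7 in the MSC libraries and 76.9, 75.3 and 62.4 in the TAC libraries, and its log2 fold change came to 0.25 (SE 0.43, limma adjusted p 0.889). Its TAC values fell between the MSC libraries of replicates 1 and 2 and that of replicate 3. Col26a1, whose structure places it in no class used here, was 20.2, 23.8 and 13.5 in the MSC libraries and 42.3, 46.3 and 20.6 in the TAC libraries. The groups overlapped only through TAC replicate 3, and the log2 fold change came to 0.85 (SE 0.41, limma adjusted p 0.477). Col28a1, a collagen found around Schwann cells, was 2.37, 1.97 and 0.00666 in the MSC libraries and 1.31, 0.695 and 1.78 in the TAC libraries, with overlapping groups and a log2 fold change of 0.04 (SE 0.63, limma adjusted p 0.992).

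**Figure D2:**
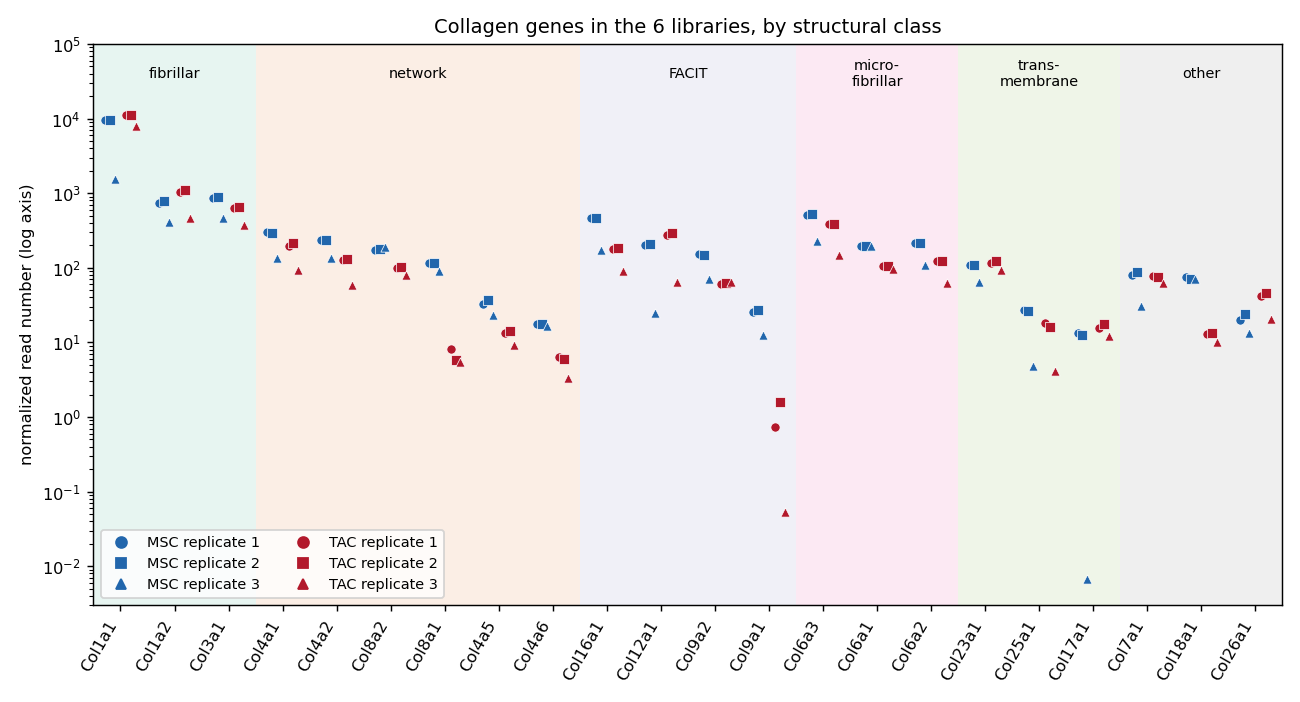
Normalized read number (log axis) of 22 collagen genes in the 3 MSC libraries (blue) and 3 TAC libraries (red), with a marker shape for each replicate and a shaded band for each class. Triangles, the replicate 3 libraries, lie below the circles and squares for most genes, while Col8a1, Col18a1 and Col9a1 show every blue marker above every red one, and Col17a1 in MSC replicate 3 is at the value of no read.

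In the plot of values by sample, Col6a1, Col6a2 and Col6a3 lay lower in TAC within each replicate number, and the groups were apart in Col6a1. This collagen forms beaded filaments close to the cell surface from the chains of Col6a1, Col6a2 and Col6a3. Col6a1 (chromosome 10, 76708792 to 76726168, minus strand) was 198, 196 and 197 in the MSC libraries and 107, 106 and 96.4 in the TAC libraries. The mean was 197 ± 0.909 (SD, n = 3) in MSC and 103 ± 5.64 in TAC, and the groups did not overlap. The narrow spread within MSC belonged to this scaling, since per megaread and kilobase of exon the MSC libraries were at 77.4, 76.6 and 113. Its log2 fold change was -0.93 (SE 0.25, limma unadjusted p 0.00629, adjusted p 0.188), and with the replicate block the limma adjusted p was 0.0486. Col6a2 was 218, 216 and 111 in the MSC libraries and 122, 123 and 63.1 in the TAC libraries, with MSC replicate 3 within the range of the TAC libraries and a log2 fold change of -0.82 (SE 0.41, limma adjusted p 0.498). Col6a3 was 506, 519 and 226 in the MSC libraries and 384, 387 and 148 in the TAC libraries. Again MSC replicate 3 lay within the TAC range, and the log2 fold change came to -0.48 (SE 0.54, limma adjusted p 0.795).

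Col6a1 and Col6a2 are neighbours on chromosome 10, 85161 bases apart on the same strand, and Col18a1 follows Col6a1 at 326009 bases. The chains Col6a4, Col6a5 and Col6a6, which can stand in for Col6a3, form a cluster on chromosome 9 and were all low. Col6a5 was 3.84, 2.72 and 0.00666 in the MSC libraries and 0.679, 1.05 and 0.00379 in the TAC libraries, with no read in either replicate 3, and its log2 fold change came to -0.80 (SE 0.73, limma adjusted p 0.726). Col6a4 and Col6a6 did not exceed 1.76 and 0.699 in any library.

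The FACIT chains at an unadjusted p under 0.05 were Col9a1, Col9a2 and Col16a1. Col9a1 (chromosome 1, 24177610 to 24252684, plus strand), a chain of the type IX collagen that coats cartilage fibrils, was 25.3, 27.2 and 12.5 in the MSC libraries and 0.744, 1.61 and 0.0531 in the TAC libraries. It was near the floor in TAC, where replicate 3 held 13 estimated reads, and every MSC library lay above every TAC library. The log2 fold change was -3.68 (SE 0.58, limma unadjusted p 0.000317, adjusted p 0.0634), and with the replicate block the adjusted p in limma was 0.0442. Because of the pseudocount of 1, this value understates the ratio of the means, 27.1. Without MSC replicate 3 its limma adjusted p was 0.0376, and leaving out any other library gave 0.123 to 0.347.

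The other type IX chains did not follow Col9a1 in size. Col9a2 was 154, 148 and 71.7 in the MSC libraries and 59.9, 61.7 and 63.8 in the TAC libraries. The groups did not overlap, yet MSC replicate 3 stood only a little above the 3 TAC libraries, and the log2 fold change was -0.92 (SE 0.35, limma unadjusted p 0.0327, adjusted p 0.361). Col9a3 had a log2 fold change of -0.39 (SE 0.58, limma adjusted p 0.865) and overlapping groups. It was lower in TAC in replicates 1 and 2 (-1.17) and stood higher in TAC in replicate 3 (1.18). Of the cartilage markers, the sum of Acan, Sox9, Hapln1 and Cnmd was 199.6, 204 and 70.9 in the MSC libraries and 237, 228 and 99.6 in the TAC libraries, with Cnmd without a read in MSC replicate 3 and TAC replicate 3. Acan was 28.9, 36.8 and 9.55 in the MSC libraries and 5.80, 6.33 and 4.68 in the TAC libraries, all TAC libraries below all MSC libraries, at a log2 fold change of -1.80 (SE 0.54, limma unadjusted p 0.0123, adjusted p 0.254), and Hapln1 was higher in TAC with 1.64 (SE 0.31, limma unadjusted p 0.00101, adjusted p 0.0998). The part of cartilage-like expression in the type IX result was not tested.

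Col16a1 (chromosome 4, 130047840 to 130099283, plus strand), a FACIT chain found close to cells in many tissues, was 458, 467 and 174 in the MSC libraries and 176, 187 and 90.6 in the TAC libraries. The MSC library of replicate 3 fell below the TAC libraries of replicates 1 and 2, so the groups overlapped, although within each replicate number TAC stood below MSC. Its log2 fold change was -1.21 (SE 0.50, limma unadjusted p 0.0454, adjusted p 0.405), and the limma adjusted p was 0.0442 with the replicate block. Col12a1, which binds type I fibrils in tendon, ligament and periodontium, went the other way at 202, 211 and 24.9 in the MSC libraries and 272, 297 and 64.0 in the TAC libraries. Its log2 fold change came to 0.75 (SE 0.94, limma adjusted p 0.823), well within the spread set by replicate 3, and it was -0.25 without MSC replicate 3. Col14a1, a relative of Col12a1, had groups that did not overlap and a log2 fold change of -1.46 (SE 0.75, limma adjusted p 0.503), with 42.4 in MSC replicate 3 against 6.96 and 6.32 in the other MSC libraries. The remaining FACIT genes, Col19a1, Col20a1 and Col22a1, had log2 fold changes from -1.78 to 0.96 and no p under 0.05 in limma. Col19a1 had at most 1 read in either replicate 3 library.

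Fibrillar collagens carried most collagen reads. On the values as deposited with a pseudocount of 1, a variance trend and no block or batch term, 0 of 11 genes were at an unadjusted p under 0.05 in limma. With a pseudocount of 4, quantile normalization, no variance trend or rescaling without the 10 most abundant genes, Col2a1 and Col5a3 were. Col2a1 also was with median-ratio size factors, rescaling without the collagen genes or leaving out TAC replicate 3. Col5a3 also was with limma voom on the estimated reads or leaving out MSC replicate 3. With the replicate block, 6 of the 11 passed the unadjusted threshold, where 20.4% of all genes did, and 0 the adjusted one in limma. They were Col3a1, Col5a1 and Col5a3 lower in TAC and Col1a2, Col2a1 and Col11a1 higher. Col1a1 (chromosome 11, 94936224 to 94953042, plus strand), the main chain of type I collagen and of dentin and bone, was 9568, 9609 and 1554 in the MSC libraries and 11167, 11125 and 8030.5 in the TAC libraries. MSC replicate 3 stood far below the other 5 libraries, and TAC replicate 3 lay below MSC replicates 1 and 2, so the groups overlapped. The log2 fold change came to 0.93 (SE 1.51, limma adjusted p 0.879), 0.22 in replicates 1 and 2 and 2.37 in replicate 3. Col1a2, the second chain of type I, was 731, 792 and 409.6 in the MSC libraries and 1052, 1087 and 460.3 in the TAC libraries, which gave a log2 fold change of 0.38 (SE 0.54, limma adjusted p 0.852). Here both replicate 3 libraries were low. Col3a1, the type III chain of pulp, vessels and other soft tissues, was 875, 901 and 471 in the MSC libraries and 636, 656 and 372 in the TAC libraries. It was the most abundant chain of the class with a negative log2 fold change, -0.42 (SE 0.48, limma adjusted p 0.799), and MSC replicate 3 lay within the TAC range.

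The minor fibrillar chains, which start and regulate fibrils, ranged from -0.99 for Col5a3 to 0.84 for Col11a2. Col5a3 was the only fibrillar gene whose TAC libraries all lay below the MSC libraries, at an unadjusted p of 0.0512 in limma. Col5a1 was 267, 287 and 113 in the MSC libraries and 203, 218 and 75.7 in the TAC libraries, with a log2 fold change of -0.45, whereas its partner Col5a2 was 302, 286 and 76.6 in the MSC libraries and 313, 313 and 186 in the TAC libraries, with 0.48. Among the type XI chains, Col11a1 was 228, 237 and 67.4 in the MSC libraries and 313, 305 and 107 in the TAC libraries, with a log2 fold change of 0.49. Col11a2 was 322, 325 and 62.0 in the MSC libraries and 372, 363 and 281 in the TAC libraries, with a log2 fold change of 0.18 in replicates 1 and 2 and 2.16 in replicate 3. The groups overlapped in all 4 of these genes, and each replicate 3 library was below the other libraries of its group. Col24a1, a fibrillar chain of bone, had no read in MSC replicate 3 and a log2 fold change of 0.97 (SE 1.08, limma adjusted p 0.794). Col27a1, a fibrillar chain of cartilage, was 164, 152 and 108 in the MSC libraries and 179.8, 186 and 246 in the TAC libraries. All TAC libraries stood above all MSC libraries, but the log2 fold change of 0.54 (SE 0.30, limma adjusted p 0.555) did not pass. Col2a1, the collagen of cartilage, was 0.720, 0.724 and 0.00666 in the MSC libraries and 10.7, 13.1 and 0.538 in the TAC libraries. It was at or near 0 in MSC and low in TAC replicate 3, with an overlap between the groups through that library, and its log2 fold change was 2.13 (SE 0.91, limma unadjusted p 0.0502, adjusted p 0.422).

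Odontoblast markers were, like Col1a1, lowest in MSC replicate 3. The sum of Dspp, Dmp1, Phex, Nes and Ibsp was 5149.9, 5005 and 532 in the MSC libraries and 4648, 4608 and 3311 in the TAC libraries, and Dmp1 and Ibsp had no read there. None of these 5 genes had an unadjusted p under 0.05 in limma. The sum of the osteoblast markers Bglap, Sp7, Alpl, Spp1 and Ifitm5 was 300.3, 305 and 439.8 in the MSC libraries and 329.7, 349 and 1408 in the TAC libraries. It was highest in TAC replicate 3, and Ifitm5 had no read in MSC replicate 3. The part of such cells in the type I values was not tested.

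Transmembrane collagens passed neither threshold in the main fit, with 0 of 4 at an unadjusted p under 0.05 in limma. In limma voom on the estimated reads Col17a1 had an unadjusted p of 0.0172. With replicates 1 and 2 only, Col25a1 (limma adjusted p 0.00284) and Col13a1 were called, among 33 of the 40 collagen genes. Col23a1, a chain on the surface of epithelial and other cells, was 110.1, 109 and 64.5 in the MSC libraries and 117, 123 and 92.5 in the TAC libraries, with a log2 fold change of 0.26 (SE 0.31, limma adjusted p 0.814). Col25a1, which is known from nerve and muscle, was 27.1, 26.3 and 4.89 in the MSC libraries and 18.1, 15.9 and 4.16 in the TAC libraries. Its log2 fold change came to -0.48 (SE 0.78, limma adjusted p 0.880), and it was 0.12 without TAC replicate 3. In both genes each replicate 3 library lay below replicates 1 and 2 of both groups. Col17a1, part of the hemidesmosomes that fix epithelial cells to their basement membrane, was 13.5, 12.6 and 0.00666 in the MSC libraries and 15.8, 17.7 and 12.2 in the TAC libraries. It had no read in MSC replicate 3, which allows a value of up to 0.0266 (3 reads, counting error only), and its log2 fold change came to 1.46 (SE 1.01, limma adjusted p 0.638). Col13a1, which acts at the nerve-muscle junction, had no read in that library either and a log2 fold change of -0.41 (SE 0.89, limma adjusted p 0.915).

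Epithelial markers did not all follow Col17a1 in MSC replicate 3. Epcam, an adhesion molecule of epithelial cells, was 1.23, 0.927 and 0.00666 in the MSC libraries and 2.26, 4.03 and 6.68 in the TAC libraries, with no read in MSC replicate 3 and a log2 fold change of 1.62 (SE 0.60, limma unadjusted p 0.0290, adjusted p 0.346). Cdh1, the cadherin of epithelial junctions, was 3.65, 4.06 and 0.00666 in the MSC libraries and 6.72, 6.31 and 14.3 in the TAC libraries. It had no read in that library either, and its log2 fold change was 1.73 (SE 0.76, limma unadjusted p 0.0562, adjusted p 0.438). Krt14, a keratin of basal epithelial cells, was 12.9, 8.84 and 16.02 in the MSC libraries and 18.1, 16.1 and 35.6 in the TAC libraries, and its partner Krt5 was 7.75, 10.2 and 15.004 in the MSC libraries and 16.005, 16.5 and 26.5 in the TAC libraries. The enamel matrix genes were low there, with Ambn at 820.2, 769.7 and 181 in the MSC libraries and 819, 799 and 1157 in the TAC libraries and Amelx at 2503, 2492 and 80.6 in the MSC libraries and 2102, 2209 and 826 in the TAC libraries. Both keratins were highest within MSC in replicate 3, unlike Epcam, Cdh1, Ambn and Amelx. Their part in the values of Col17a1 and Col7a1 was not tested.

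**Figure D3:**
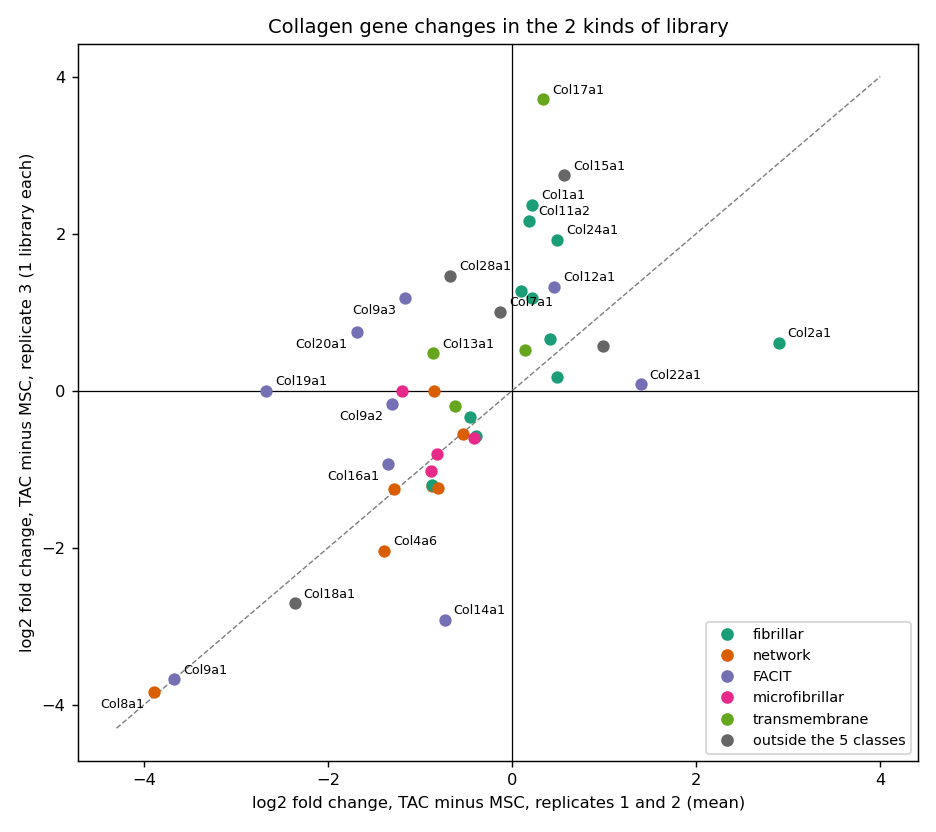
Log2 fold change, TAC minus MSC, in replicate 3 (vertical axis, 1 library per group) against that in replicates 1 and 2 (horizontal axis, mean) for 40 collagen genes, colored by class, with a dashed line of equality. Col8a1, Col9a1 and Col18a1 lie near the line at the lower left, while Col17a1, Col15a1 and Col1a1 lie high above it.

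The direction of the difference was the same in both kinds of library for most genes, as the plot of the 2 kinds shows. In 20 of the 40 genes TAC was lower in replicates 1 and 2 and in replicate 3, against 31.2% of all genes tested. In 14 genes TAC was higher in both, against 30.1%, and 6 genes had opposite directions, against 38.8%. All 7 network and all 4 microfibrillar genes were lower in TAC in both kinds, and 3 fibrillar genes were lower and 8 higher in both. Of the 9 FACIT genes 4 were lower in both, 2 higher in both and 3 opposite. These counts include Col10a1 and Col6a5, which had no read in either replicate 3, and Col19a1, which had at most 1, so their direction there carries no information. Replicate 3 has 1 library per group and allows no test of its own. The log2 fold change differed between the kinds, by limma's interaction test at an adjusted p under 0.05, in 26 of 40 collagen genes, where 57.2% of all genes passed. That test rests on the spread between replicates 1 and 2 alone. Col8a1 (adjusted p 0.842), Col9a1 (0.997), Col18a1 (0.108) and Col6a1 (0.175) were not among the 26 in limma.

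Levels of different chains were compared as reads per kilobase of exon and per megaread of library total, taking the union of annotated exons as the length. Col1a1 was by far the highest collagen, at 1864 ± 1099 (SD, n = 3) in MSC and 3003 ± 31.3 in TAC. In the order of the mean over all 6 libraries, Col3a1 followed at 143 ± 19.9 (SD, n = 3) in MSC and 109 ± 14.1 in TAC, then Col1a2 at 97.5 ± 13.4 (SD, n = 3) in MSC and 132 ± 36.0 in TAC. Col3a1 stood above Col1a2 in MSC and below it in TAC. The order of their pooled means turned with the length used, as the exon union of Col1a2 was 12426 bases and its longest transcript 5348. With the longest transcript Col3a1 was at 253 in MSC and 192 in TAC, and Col1a2 at 227 and 307. Col11a2 came next on the pooled mean, at 61.2 ± 33.4 (SD, n = 3) in MSC and 96.5 ± 3.43 in TAC. Among the other classes the highest were Col16a1, at 99.7 ± 30.3 (SD, n = 3) in MSC and 42.7 ± 8.70 in TAC, Col6a1, at 89.0 ± 20.8 (SD, n = 3) in MSC and 46.6 ± 6.19 in TAC, and Col8a2, at 79.8 ± 22.2 (SD, n = 3) in MSC and 40.7 ± 2.01 in TAC. The order differed within TAC, where Col6a3 (48.2) stood above Col6a1 and Col16a1, and Col4a1 (42.4) above Col8a2. Within MSC alone the 3 named first stood above Col11a2, and with the longest transcript Col16a1 did so on the pooled mean as well, as Col6a3 then did over Col8a2. The neighbours Col16a1, Col6a1 and Col8a2 were separated in MSC by less than their SDs.

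**Figure D4:**
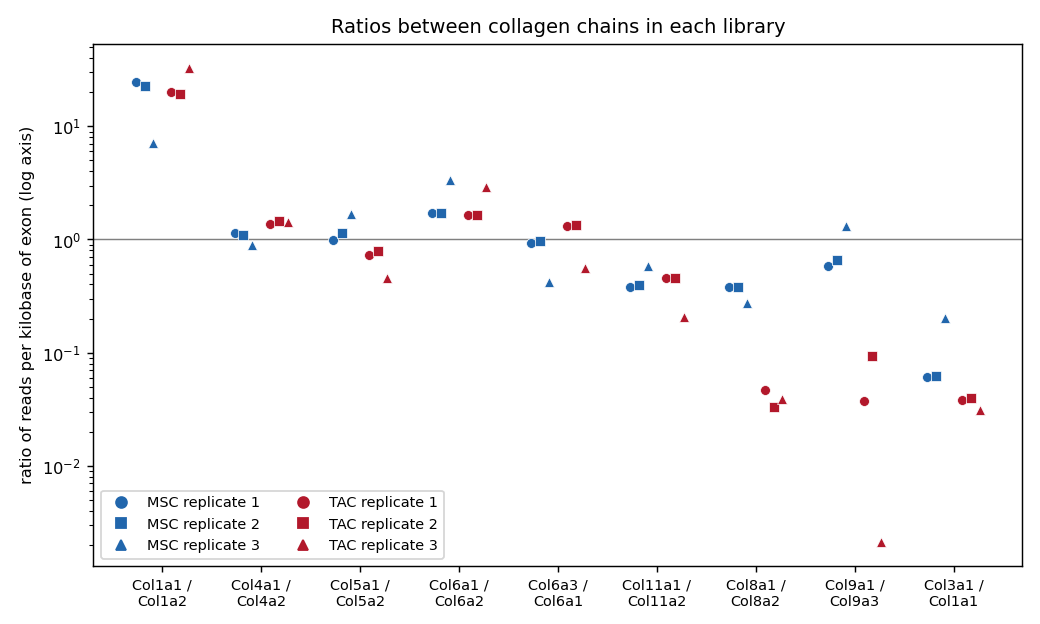
Ratio of reads per kilobase of exon between collagen chains (log axis) in each library, MSC in blue and TAC in red, with a marker shape for each replicate and a grey line at a ratio of 1. The ratio of Col8a1 to Col8a2 is 0.274 or more in the MSC libraries and 0.0471 or less in the TAC libraries, and that of Col9a1 to Col9a3 is also lower in every TAC library.

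Chains of the same collagen were set against each other within each library, a ratio that does not depend on library scaling. For Col8a1 to Col8a2 the ratio was 0.381, 0.378 and 0.274 in the MSC libraries and 0.0471, 0.0327 and 0.0390 in the TAC libraries, a log2 difference of -3.12. For Col9a1 to Col9a3 it was 0.583, 0.657 and 1.30 in the MSC libraries and 0.0372, 0.0937 and 0.00211 in the TAC libraries, a log2 difference of -5.35. In both pairs every TAC library lay below every MSC library, so the fold changes of the partners were unequal. For Col4a1 to Col4a2 the ratio was 1.13, 1.09 and 0.895 in the MSC libraries and 1.37, 1.45 and 1.43 in the TAC libraries. It was higher in every TAC library than in any MSC library, on average by 0.45 on the log2 scale. Col5a1 to Col5a2 gave a log2 difference of -0.95 and Col3a1 to Col1a1, the balance of type III and type I, -1.35, without overlap in either. The last was -0.78 without MSC replicate 3, and the difference of Col9a1 to Col9a3 was -3.75 without TAC replicate 3. In the exact permutation test, two-sided, each of these 5 pairs reached p = 0.1, the smallest that 3 against 3 samples allow, and p = 0.18 after adjustment over the 9 pairs compared.

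The ratio of Col1a1 to Col1a2 was 24.8, 23.0 and 7.18 in the MSC libraries and 20.1, 19.4 and 33.0 in the TAC libraries, with MSC replicate 3 lowest and TAC replicate 3 highest. Its log2 difference was 0.55 (exact permutation p = 0.6), and -0.03 without MSC replicate 3. The ratios Col6a1 to Col6a2, Col6a3 to Col6a1 and Col11a1 to Col11a2 had log2 differences of -0.12, 0.46 and -0.36 (exact permutation p = 0.5, 0.5 and 0.6), and all 3 had overlapping groups. That test does not use the replicate number. Within each number Col6a3 to Col6a1 was higher in TAC, at 0.935, 0.968 and 0.420 in the MSC libraries and 1.32, 1.34 and 0.563 in the TAC libraries. Col6a1 to Col6a2 was lower in TAC within each number, and Col11a1 to Col11a2 went both ways.

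Collagen genes together took 2.66%, 2.68% and 1.14% of the estimated reads of the MSC libraries and 2.89%, 2.87% and 2.63% of those of the TAC libraries. MSC replicate 3 was the lowest by a wide margin. The means were 2.16% ± 0.885 (SD, n = 3) in MSC and 2.79% ± 0.143 in TAC (exact permutation p = 0.3). Without Col1a1 the order was the opposite, at 0.935% ± 0.164 (SD, n = 3) in MSC and 0.823% ± 0.132 in TAC (exact permutation p = 0.5). Counting error was small beside this spread, as the 95% Wilson interval of MSC replicate 1 ran from 2.65% to 2.66%. Col1a1 alone made up 1.22% ± 0.721 (SD, n = 3) in MSC and 1.97% ± 0.0205 in TAC, and the fibrillar class 1.67% ± 0.822 (SD, n = 3) in MSC and 2.48% ± 0.0889 in TAC (exact permutation p = 0.1 and 0.138 after adjustment for each). On the 2 other totals, without the 10 most abundant genes and over protein-coding genes alone, the groups overlapped for Col1a1 (exact permutation p = 0.3 on each) and for the fibrillar class (p = 0.5 on each).

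Network chains had a smaller share in every TAC library than in any MSC library. Their share was 0.150%, 0.151% and 0.148% in the MSC libraries and 0.0801%, 0.0835% and 0.0605% in the TAC libraries. On this total the 3 MSC libraries were nearly equal, and no TAC library came near them. The means were 0.150% ± 0.00147 (SD, n = 3) in MSC and 0.0747% ± 0.0124 in TAC (exact permutation p = 0.1, the smallest possible, and 0.138 after adjustment over the 11 sets compared). On the other 2 totals MSC replicate 3 was lower than the other MSC libraries, at 0.155% against 0.203% and 0.205% without the 10 most abundant genes, and the network groups did not overlap either (exact permutation p = 0.1 on each, 0.471 after adjustment). The microfibrillar share was 0.151% ± 0.0144 (SD, n = 3) in MSC and 0.0979% ± 0.0198 in TAC, and the FACIT share 0.132% ± 0.0399 (SD, n = 3) in MSC and 0.0857% ± 0.0215 in TAC. The microfibrillar share did not overlap between the groups on the full total and overlapped on the other 2 totals. The same held for the transmembrane share, higher in TAC at 0.0274% ± 0.000716 (SD, n = 3) against 0.0234% ± 0.00519 in MSC. It also held for the genes outside the 5 classes, lower in TAC at 0.0260% ± 0.00127 (SD, n = 3) against 0.0314% ± 0.00219 in MSC. On the full total each had exact permutation p = 0.1 and 0.138 after adjustment, as the network class did.

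**Figure D5:**
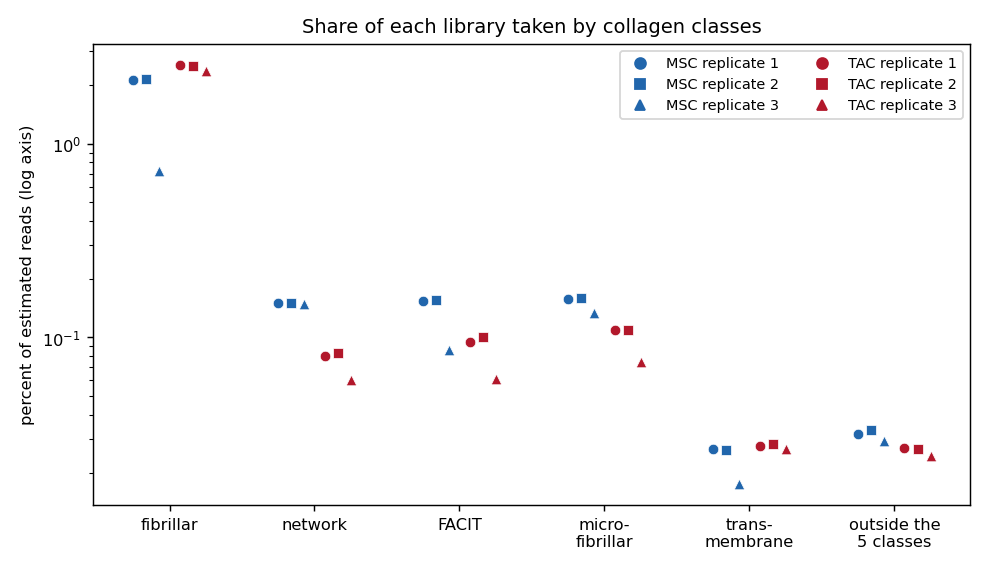
Percent of the estimated reads of each library (log axis) on the genes of each collagen class, MSC in blue and TAC in red, with a marker shape for each replicate. The fibrillar class holds the most reads in every library, with MSC replicate 3 lowest at 0.721%, and in the network class the 3 MSC libraries lie together, at 0.148% to 0.151%, above the TAC libraries, at 0.0605% to 0.0835%.

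Genes that process, bind or break down collagen were examined from 4 lists. Of 19 tested genes for folding and secretion, 5 were lower and 14 higher in TAC, with 2 at an unadjusted p under 0.05, or 10.5% against 11.9% of all genes tested. The lowest p was that of Plod2, which hydroxylates the lysines used for crosslinks. It was 58.5, 60.1 and 9.22 in the MSC libraries and 102, 99.2 and 125 in the TAC libraries, with all TAC libraries above all MSC libraries and a log2 fold change of 1.71 (SE 0.68, limma unadjusted p 0.0384, adjusted p 0.383). Serpinh1, the collagen chaperone of the endoplasmic reticulum, was 261, 265 and 346 in the MSC libraries and 441, 469.9 and 550.2 in the TAC libraries, with a log2 fold change of 0.75 (SE 0.33, limma adjusted p 0.438) and groups that did not overlap.

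Of 11 genes for propeptide cleavage and crosslinking, 6 were lower and 5 higher in TAC, with 2 (18.2%) at an unadjusted p under 0.05. Pcolce, which enhances removal of the end propeptide of fibrillar collagens, had the lowest p. It was 57.6, 61.7 and 39.6 in the MSC libraries and 108, 109 and 172 in the TAC libraries, higher in every TAC library than in any MSC library, and its log2 fold change was 1.27 (SE 0.32, limma unadjusted p 0.00476, adjusted p 0.179). Of 8 collagen receptors, 5 were lower and 3 higher, with 2 (25.0%) at an unadjusted p under 0.05. Itga11, an integrin subunit that binds fibrillar collagen, was 37.7, 40.9 and 23.5 in the MSC libraries and 7.99, 6.35 and 9.74 in the TAC libraries, lower in every TAC library, with a log2 fold change of -1.94 (SE 0.36, limma unadjusted p 0.000944, adjusted p 0.0962). Of 8 genes of collagen breakdown, 4 were lower and 4 higher, with 3 (37.5%) at an unadjusted p under 0.05. Timp3, an inhibitor of matrix proteases, was the only gene of the 4 lists with an adjusted p under 0.05. Its value was 209, 207 and 513 in the MSC libraries and 39.6, 38.3 and 27.2 in the TAC libraries, with no overlap between the groups and MSC replicate 3 highest. The log2 fold change came to -2.99 (SE 0.42, limma adjusted p 0.0413), and the limma adjusted p was 0.0556 with the replicate block. Leaving out MSC replicate 1 or 2, or TAC replicate 1, 2 or 3, gave 0.222, 0.219, 0.186, 0.209 and 0.135.

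Other marker lists were examined in the same way, where 48.5% of all genes tested were lower in TAC. The macrophage sum (Adgre1, Csf1r, Cd68, C1qa and C1qb) was 52.7, 45.5 and 104 in the MSC libraries and 29.96, 30.9 and 87.8 in the TAC libraries, with 4 of 5 genes lower in TAC and 0 at an unadjusted p under 0.05 in limma. The sum for dental follicle and periodontium (Postn, Scx, Tnmd, Aspn and Mkx) was 115, 104 and 137 in the MSC libraries and 82.5, 89.9 and 101 in the TAC libraries, with 4 of 4 tested genes lower and 0 at that threshold in limma, and with Scx and Tnmd at no read in at least 1 library. Of the skeletal muscle list only Acta1 and Tnnt3 were found, and their sum did not exceed 6.66 in any library.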

How the data were processed

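Regions cut by laser capture from incisors of 6 samples, 3 of MSC and 3 of TAC, were sequenced by the authors with 75-cycle single-end reads. The submitters' processing notes name CASAVA 1.8.2, TopHat2 2.0.8 and Partek, and the reads were aligned to the mouse build mm10. The counting tool, its version and its use of strand are not given in the sources used here. The authors deposited 1 table of 23718 genes, whose values are a normalized signal. The methods name RPKM, but the values behaved as the read number plus 1 over a factor per library, with no division by gene length. A gene without a read stands at the lowest value of its library, 0.00666 in MSC replicate 3 and 0.00379 in TAC replicate 3. Estimated reads were the value over that lowest value, less 1. Between 63.4% and 74.3% of values under 20 reads came out whole within 0.02, so no count model was used for the main fit. As an alternative, limma voom was run on the estimated reads. The Wilson intervals and the comparison of replicates with sampling noise used the estimates rounded to whole reads.

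The test was limma 3.58.1 (R 4.3.3) with a variance trend on log2(value + 1), over the 15391 genes whose mean reached 1, as TAC minus MSC with Benjamini-Hochberg adjustment over all of them and a threshold of 0.05. The pseudocount of 1 understates fold changes of low genes. Shares and ratios were compared by exact permutation tests, two-sided, with intervals by Wilson's method. Those intervals cover counting error only, since no molecular identifiers are described. The labels do not tie libraries to mice, so p-values measure the spread between these samples, which may be technical. Replicates 1 and 2 differed beyond sampling noise (chi-square per gene 10.3 in MSC and 8.32 in TAC) and were kept apart. That comparison covers counting noise alone, so it cannot tell repeats of 1 sample from separate samples.

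Same-numbered samples of the groups deviated together, with correlations of 0.477, 0.466 and 0.517, but replicates 1 and 2 did so across numbers as well (0.462 and 0.480). The numbers come from the sample titles. The study's methods speak of pairs of samples but name no block in their test. The replicate block was therefore an alternative, given where it changed a call. Values were given for the 3 most abundant genes of each class, for genes at an unadjusted p under 0.05 and for genes called with the block. Of the 4 partner lists, called genes or else the gene with the lowest p were named. The members, classes and lists were chosen with earlier results of these data known, and other genes named, such as Col14a1, Col27a1, Col2a1, Col11a2, Acan, Hapln1, Serpinh1, Sox10, Ambn, Amelx, Epcam, Cdh1, Krt14 and Krt5, were chosen after their values were seen. The sums of 2 marker lists are not reported here. Positions are those of the deposited table on mm10, and 43 of 44 matched GENCODE M21, Col20a1 being the exception. Protein sequences were planned, and RefSeq promoter windows (GRCm38.p6) of 300 bases were used in their place. Alternatives covered the pseudocount, the filter, the scaling, the variance model, the samples and the lengths.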

Additional observations from a re-analysis of the deposited data

Results flagged for a closer look

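In 5 collagen genes with at least 3 reads in a replicate 3 library, the log2 fold change had opposite signs in the 2 kinds of library, and limma's interaction test of the difference passed after adjustment over all genes. Col9a3 was at -1.17 in replicates 1 and 2 and 1.18 in replicate 3 (limma adjusted p 9.42e-05). Col20a1, a FACIT chain, was at -1.69 and 0.74 (limma adjusted p 0.00303). Col7a1 was at -0.13 and 1.00 (limma adjusted p 0.000174). Col28a1 was at -0.68 and 1.46 (limma adjusted p 0.00390), and Col13a1 at -0.86 and 0.47 (limma adjusted p 0.0399). Replicate 3 has 1 library per group, so the test takes its error from replicates 1 and 2 alone, and the same test passed for 57.2% of all genes. The genes were picked for their opposite signs, so the p-values only describe these libraries. Col28a1 and Col13a1 had no read in MSC replicate 3, where their fold change is set by the value of no read.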

How the results depend on the processing

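In 16 of 20 alternatives Col8a1 had a limma adjusted p under 0.05, and in 14 Col18a1 did. The count of collagen genes called, 2, was 3 with a pseudocount of 4 or quantile normalization (Col9a1 added, limma adjusted p 0.0496 and 0.0328), 1 without the variance trend, 16 with the kind of library as a batch term, 33 with replicates 1 and 2 only and 1 with those replicates averaged. Leaving out 1 library gave 0 to 4. At an unadjusted p under 0.05 the count of 10 was 26 with the batch term, 38 with replicates 1 and 2 only, 3 with those averaged and 7 to 17 with 1 library left out. In the batch fit 14 of the 16 were lower in TAC, and with replicates 1 and 2 only 23 of the 33. Beyond the shares given above for the block and the batch term, the share of all genes that passed in each alternative is not given here. These counts therefore cannot be read as particular to collagen genes.

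With the replicate block, 5 collagen genes were called and 21 passed unadjusted. Beyond Col9a1, Col6a1 and Col16a1 it changed the adjusted call of no other collagen gene.

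Of 22 genes, 19 kept their direction throughout. Without MSC replicate 3, Col12a1 was at -0.25 (leave-one-out range -0.25 to 1.46) and Col7a1 at -0.23 (-0.23 to 0.52), and with replicates 1 and 2 only Col7a1 was at -0.13. Without TAC replicate 3, Col25a1 was at 0.12 (-1.22 to 0.12). The log2 ratio difference of Col1a1 to Col1a2 was -0.026 without MSC replicate 3 (-0.026 to 0.87), that of Col6a1 to Col6a2 was 0.21 without MSC replicate 3, and 0.014 and 0.024 without replicates 1 or 2 of TAC (-0.39 to 0.21), and that of Col11a1 to Col11a2 was 0.025 without TAC replicate 3 (-0.55 to 0.025). The cause was not tested. Genes without a read in a replicate 3 library, 13 of 44, had no level to compare there.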
